A study of Mus musculus with 60 samples.

Results

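The genes described here are 10 genes of hepatic bile acid synthesis and transport: Cyp7a1, Cyp8b1, Cyp27a1, Abcb11, Slc10a1, Nr0b2, Nr1h4, Baat, Slc27a5 and Fgfr4. They were chosen by name for their textbook roles. No rule on measured values was used, but earlier results of these data were known when they were chosen. All 10 were found among the 54343 symbols of each of 2 liver tables, and all 10 passed the filter on low values, 1 FPKM (a fragment count divided by transcript length and library size) in at least 5 of the 15 libraries of a table. The study profiled liver and inguinal white adipose tissue of diet-induced obese (DIO) mice in 60 libraries, 12 groups of 5, of which the 30 liver libraries are the subject here. The Glp1r table holds Glp1rfl/fl mice given vehicle, Glp1rfl/fl mice given mGIPR-Ab/P1 and Glp1rWnt1-/- mice given vehicle. The Gipr table holds Giprfl/fl mice given vehicle, Giprfl/fl mice given mGIPR-Ab/P1 and GiprSyn-/- mice given vehicle. mGIPR-Ab/P1, the conjugate below, is an antibody against GIPR, the receptor of the gut hormone GIP, joined to a peptide that acts on the GLP-1 receptor. Mice of all 6 groups were diet-induced obese. The knockout genotypes are named for Wnt1 and Syn, and as background Wnt1 drivers act in neural crest derivatives and synapsin drivers in neurons, so the receptor genes are not described as deleted in hepatocytes. Knockout mice given the conjugate were not analysed here, and the labels used here state no dose, duration, sex or age.

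Bile acids are made from cholesterol in hepatocytes. CYP7A1 opens the classic route, CYP27A1 and then CYP7B1 serve the alternative route, and CYP8B1 adds the hydroxyl group that turns the product from the chenodeoxycholic to the cholic acid branch. The acids are activated by SLC27A5, joined to taurine or glycine by BAAT, exported into bile by ABCB11 and taken up again from portal blood by SLC10A1. The nuclear receptor FXR, encoded by Nr1h4, senses bile acids and induces the repressor SHP, encoded by Nr0b2, and gut FGF15 acts on the receptor FGFR4 to hold synthesis down.

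The 8 hepatocyte markers summed to 37643 to 63210 FPKM in each of the 30 livers, and 1 of them, Fgb (a fibrinogen chain), rose with the conjugate in the Gipr line. Depth, estimated from the smallest steps in the values, was 31.7 to 57.3 M fragments (M, 1e6). Conjugate libraries of the Glp1r line had 31.7 to 35.6 M, below all 5 vehicle libraries (47.6 to 54.7 M), and in the Gipr line the groups overlapped. Summed over 9 pancreas acinar markers, some Gipr livers held pancreas transcripts (13.9 to 4886 FPKM with vehicle, 43.2 to 9048 with the conjugate and 38.3 to 3281 in the knockout), while in the Glp1r livers the sum lay between 12.54 and 37.2 FPKM. Glp1r averaged at most 0.0852 FPKM and Gipr at most 0.0048 FPKM in any liver group, so these levels cannot check the genotype labels.

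The members spanned a wide range of levels per transcript length. Averaged over the 3 groups of a table, Slc27a5 (290 FPKM in the Glp1r and 359 in the Gipr table) and Slc10a1 (274 and 290 FPKM) were highest, ahead of Cyp27a1 (195 and 167 FPKM), Cyp8b1 (142 and 106), Baat (107 and 112), Abcb11 (89.8 and 93.2) and Nr1h4 (74.7 and 70.1). Nr0b2 (19.9 and 20.6 FPKM), Cyp7a1 (15.3 and 18.3) and Fgfr4 (9.72 and 8.19) were lowest. Some neighbours in this order overlapped by library. In the Glp1r vehicle group Slc27a5 ran from 264 to 314.5 FPKM and Slc10a1 from 219 to 326.5 FPKM. Others were apart, such as Abcb11 (88.0 to 91.8 FPKM) and Nr1h4 (49.8 to 79.6 FPKM) in the same group. The coefficient of variation over the 5 libraries of a group was 35.4 to 58.3% for Cyp7a1 and 15.9 to 80.8% for Nr0b2, against 3.39 to 11.3% for Slc27a5. In adipose tissue, whose tables were normalized separately, Cyp27a1 stood at 13.02 ± 2.62 FPKM (SD, n = 5) in the Glp1r and 17.7 ± 1.28 in the Gipr vehicle group, and Nr1h4 reached 1.04 ± 0.237 FPKM in the Gipr vehicle group, while the mean of each of the other 8 members was below that.

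**Figure D1:**
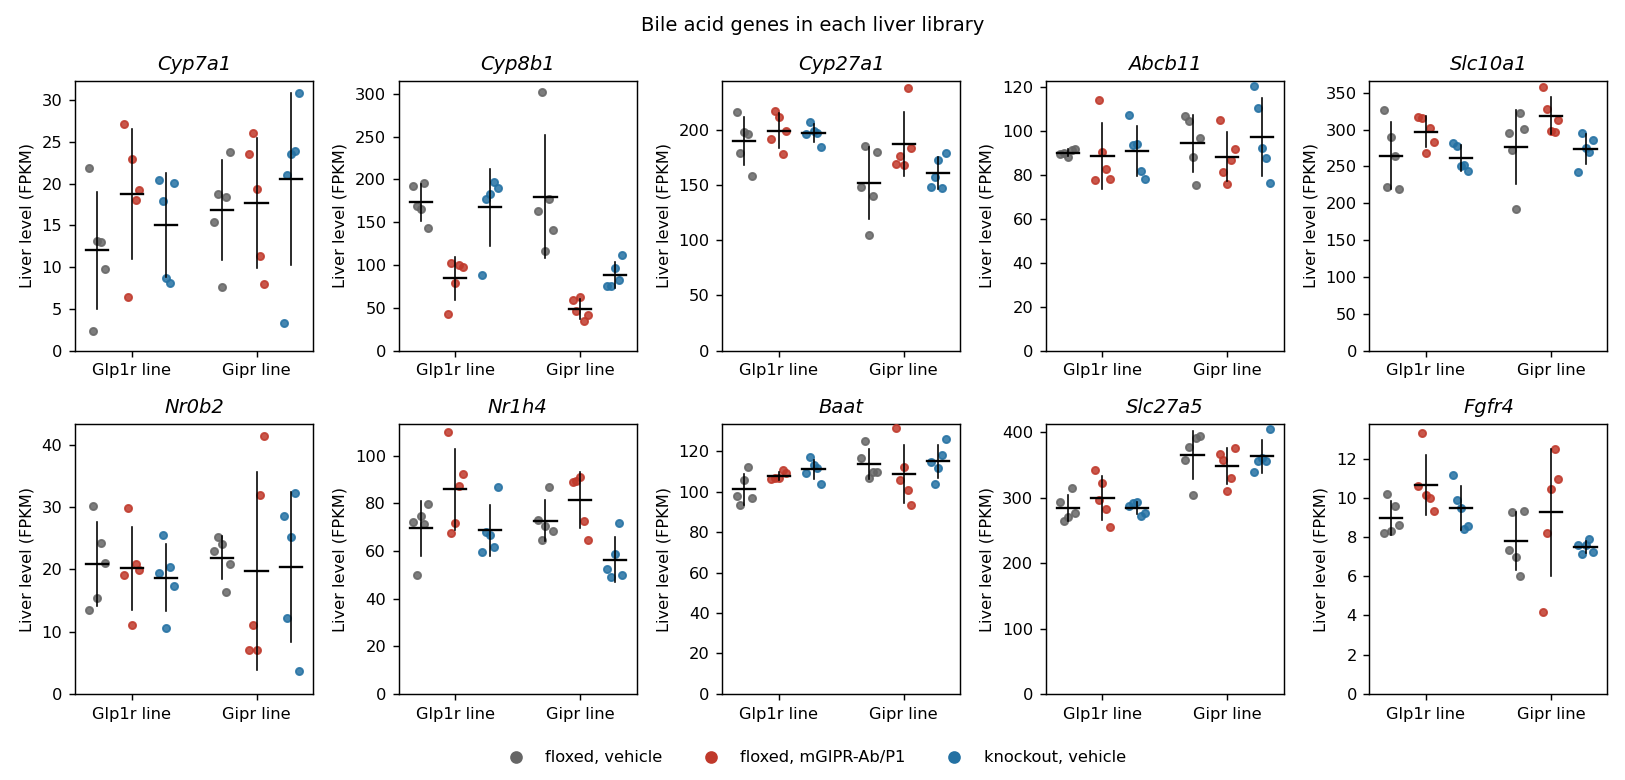
Level of the 10 bile acid genes in FPKM in each of the 30 liver libraries, with a panel per gene, a point per library, a horizontal bar at the group mean and a vertical line of 1 SD on either side. Cyp8b1 is lower in both conjugate groups (84.5 and 48.8 FPKM on average) and in GiprSyn-/- livers (88.6 FPKM), and the points of Cyp7a1 and Nr0b2 scatter widely within groups.

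Cyp8b1, the sterol 12-alpha-hydroxylase, was the member that changed. With the conjugate it fell in both lines, and in GiprSyn-/- livers given vehicle it also fell, while in Glp1rWnt1-/- livers no change was called. In the Glp1r line it was 192, 169, 165, 196 and 143.5 FPKM in the 5 vehicle livers and 42.9, 103, 79.4, 99.8 and 97.4 FPKM in the 5 conjugate livers. Every conjugate liver lay below every vehicle liver. The group means were 84.5 ± 25.0 FPKM with the conjugate against 173 ± 21.4 with vehicle (SD, n = 5). The log2 fold change was -1.08 ± 0.24 (SE) with an adjusted p of 0.0137 by limma, fitted to all genes on the log2(FPKM + 1) scale.

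Livers of the Gipr line held Cyp8b1 at 163, 302, 117, 177 and 141 FPKM with vehicle and at 59.5, 46.2, 62.1, 34.5 and 41.7 FPKM with the conjugate. Again no conjugate liver reached the lowest vehicle liver. The means were 48.8 ± 11.8 against 180 ± 71.7 FPKM, a log2 fold change of -1.82 ± 0.22 with an adjusted p of 0.00213, and by p-value Cyp8b1 was among the first 3 of 11201 genes. The 5 GiprSyn-/- livers held 76.1, 76.1, 96.4, 82.4 and 112 FPKM, all below the 5 vehicle livers. Their mean was 88.6 ± 15.5 FPKM and the log2 fold change -0.95 ± 0.22 (adjusted p = 0.0135 by limma). That call did not hold under median-of-ratios scaling (log2 fold change of Cyp8b1 -0.80, adjusted p = 0.051) or quantile normalization (-0.79, adjusted p = 0.0522). In Glp1rWnt1-/- livers Cyp8b1 was 88.9, 178, 183, 197 and 189.5 FPKM. Of these 5 livers 1, replicate 1, lay below the vehicle range and replicate 4 just above it, and the log2 fold change was -0.10 ± 0.24 (adjusted p = 0.933).

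Cyp8b1 was 1 of 10 members called lower, and 1 of 10 without overlap between groups, in each of the 3 comparisons that called it. For all genes tested, in the Glp1r line with the conjugate 4.69% were called lower, 5.68% higher and 9.15% did not overlap. In the Gipr line with the conjugate 3.17% were called lower, 1.17% higher and 4.93% did not overlap, and in GiprSyn-/- livers 8.92%, 1.44% and 12.3%. In Glp1rWnt1-/- livers 0% of the 10858 genes were called by limma (1048 had an unadjusted p under 0.05), 2.36% did not overlap, and the members gave 0 calls (1, Baat, at an unadjusted p under 0.05) and 0 cases without overlap. A count of 1 in 10 lies close to these shares, and it is no result about the 10 genes as a group. The median log2 fold change of the members was 0.09, -0.02, 0.00 and 0.00 (conjugate in the Glp1r and Gipr lines, then the Glp1r and Gipr knockouts), beside 0.01, -0.03, -0.04 and -0.11 for all genes tested.

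Set in order over both tables, which were normalized separately, the group means of Cyp8b1 were 180 (Gipr vehicle), 173 (Glp1r vehicle), 167 (Glp1r knockout), 88.6 (Gipr knockout), 84.5 (Glp1r conjugate) and 48.8 FPKM (Gipr conjugate). The first 3 groups overlapped one another, as did the Gipr knockout and the Glp1r conjugate groups, and both conjugate groups. Against the knockout of the same line, Cyp8b1 in conjugate livers was lower by a log2 fold change of -0.99 ± 0.24 in the Glp1r line (adjusted p = 0.0332 by limma), with 1 knockout liver inside the conjugate range. This call was lost under 8 of 26 alternatives: with no filter on low values (adjusted p = 0.0838), in a fit of only the 2 groups (0.09), with the depth term (0.395), and without conjugate replicate 1 or 3 or knockout replicate 2, 3 or 4 (0.0605 to 0.081). In this comparison 0.903% of all genes were called lower and 5.53% did not overlap. For the Gipr line the log2 fold change was -0.86 ± 0.22 and the groups did not overlap, but the adjusted p was 0.0736. There 0.232% of all genes were called lower and 4.21% did not overlap. These comparisons share their libraries with those against vehicle.

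The change with the conjugate was not shown to differ between the lines. The difference of the 2 log2 fold changes of Cyp8b1, Glp1r minus Gipr, was 0.73 ± 0.343 (adjusted p = 0.856 by limma over 11549 genes). In that test 0% of all genes were called, with 660 at an unadjusted p under 0.05. The same difference for the knockouts, added after the values were seen, was 0.86 ± 0.343 for Cyp8b1 (adjusted p = 0.321 by limma), where 0.658% of all genes and 0 of 10 members were called. So the call in GiprSyn-/- livers and its lack in Glp1rWnt1-/- livers do not show that the 2 knockouts differ in Cyp8b1.

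Depth in the Glp1r line followed the treatment and cannot be told apart from it. With estimated depth as a term in the fit, the log2 fold change of Cyp8b1 with the conjugate was -2.22 ± 0.70 and its adjusted p 0.312. In the Gipr line, where depths overlapped, Cyp8b1 fell with the conjugate under each alternative that was run. That line cannot separate depth from treatment in the Glp1r line. Erythrocyte markers moved with the conjugate as well: 3 of 5 fell in each line, and their summed level was 475 to 889 FPKM against 1016 to 1522 with vehicle in the Glp1r line and 406 to 1170 against 993 to 1678 FPKM in the Gipr line. GiprSyn-/- livers summed to 634 to 859 FPKM, below all vehicle livers, though 0 of the 5 erythrocyte markers were called there by limma (4 at an unadjusted p under 0.05). Adipocyte markers (2 of 3 tested fell, Cidea and Fabp4, with a sum over 5 markers of 9.75 to 16.9 against 27.6 to 73.9 FPKM) and stellate and fibroblast markers (2 of 5 fell, Col1a1 and Col3a1, with a sum of 18.2 to 29.0 against 27.0 to 42.1 FPKM) were also lower in that knockout. Cidea and Fabp4 averaged 7.11 and 14.4 FPKM in Glp1r vehicle livers, where Adipoq, Plin1 and Lep averaged 0.0097, 0.0032 and 0 FPKM. So Cidea and Fabp4 do not mark adipocytes alone. The part of erythrocytes, adipocytes, stellate cells and fibroblasts in the results was not tested. With the pancreas score as a term, the log2 fold change of Cyp8b1 in the Gipr line was -1.82 with the conjugate and -0.96 in the knockout. Without that term it was -1.82 and -0.95. The part of pancreas tissue in the results was not tested. In bulk tissue, fewer cells of a type and less RNA per cell cannot be told apart.

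The sequence just before the start of Cyp8b1 is shown because this is the member that moved, beside that of Cyp2c70, a hydroxylase gene that moved the other way. Both are the 250 bases before the annotated start in RefSeq (GRCm38.p6), read 5′ to 3′ along the gene, at chr9:121916306-121916555 and chr19:40187287-40187536, both on the minus strand. Capitals mark matches to CAAAGTCCA, a form of the direct repeat bound by the hepatocyte nuclear receptor HNF4A, and to TATAAA, the TATA box, searched on both strands.
Cyp8b1: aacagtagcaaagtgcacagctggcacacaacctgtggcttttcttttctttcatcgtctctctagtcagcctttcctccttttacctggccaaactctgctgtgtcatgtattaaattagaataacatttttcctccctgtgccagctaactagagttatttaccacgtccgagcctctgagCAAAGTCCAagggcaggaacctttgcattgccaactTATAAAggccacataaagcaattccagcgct
Cyp2c70: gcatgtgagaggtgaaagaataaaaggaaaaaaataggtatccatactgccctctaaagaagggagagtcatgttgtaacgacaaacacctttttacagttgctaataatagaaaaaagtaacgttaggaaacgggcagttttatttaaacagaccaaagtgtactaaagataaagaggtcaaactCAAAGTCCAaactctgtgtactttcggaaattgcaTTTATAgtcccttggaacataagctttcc
In Cyp8b1 the CAAAGTCCA match lay 67 to 59 bases before the start and the TATAAA match 31 to 26 bases before it. In Cyp2c70 the CAAAGTCCA match lay 64 to 56 bases before the start, and a TATAAA match on the opposite strand 29 to 24 bases before it. CAAAGTCCA was found in 126 of 32851 such windows (0.384%) and TATAAA in 12.4%. Among the 7 members with a window in the table, 1 held CAAAGTCCA and 3 held TATAAA. Cyp7a1, Baat and Slc27a5 were not matched. The matches do not overlap each other and describe letters only. Cyp7b1, another hydroxylase gene that moved the other way, is not shown. Both sequences are therefore no comparison of genes that fell with genes that rose.

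Cyp7a1, which encodes the enzyme that opens the classic route, was low and scattered, and no change was called. Glp1rfl/fl livers held 21.9, 2.38, 13.1, 13.01 and 9.80 FPKM with vehicle and 27.2, 6.43, 23.0, 18.0 and 19.2 FPKM with the conjugate. The groups overlapped, and replicate 2 was the lowest in each. The log2 fold change was 0.71 ± 0.464 (adjusted p = 0.344 by limma). Giprfl/fl livers held Cyp7a1 at 15.4, 18.8, 7.64, 18.4 and 23.8 FPKM with vehicle and at 23.5, 26.0, 19.4, 11.4 and 7.93 FPKM with the conjugate. Again the ranges overlapped, with a log2 fold change of 0.03 ± 0.483 (adjusted p = 0.986). Of the GiprSyn-/- livers 4 held 21.1 to 30.8 FPKM and replicate 1 held 3.36 FPKM, and for Glp1rWnt1-/- livers the range was 8.06 to 20.5 FPKM. With standard errors of 0.464 and 0.483, only a large change of Cyp7a1 could have been called with 5 livers a group.

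Because CYP8B1 acts downstream of CYP7A1, the ratio of both genes was taken in each liver as log2 of (Cyp8b1 + 1) over (Cyp7a1 + 1). It was, in the Gipr line, 3.32, 3.93, 3.77, 3.20 and 2.52 with vehicle and 1.304, 0.80, 1.63, 1.52 and 2.26 with the conjugate. The groups did not overlap, and the mean difference was -1.84 (exact two-sided permutation p = 0.00794, the smallest that 5 against 5 can give, 0.0317 adjusted over 4 comparisons). In that comparison the log2 fold change was -1.82 for Cyp8b1 and 0.03 for Cyp7a1. So the ratio there repeats the fall of Cyp8b1 and is no separate result. Without conjugate replicate 1, 2 or 4 the difference was -1.79, -1.67 or -1.85 with an adjusted exact p of 0.0635 each time. The call was then lost, while the groups still did not overlap. With 4 against 5 livers the exact test has fewer assignments, so its p-value moves in larger steps. For the Glp1r line the ratio was 3.97 ± 0.986 with vehicle and 2.18 ± 1.15 with the conjugate (SD, n = 5), a difference of -1.79 with an exact permutation p of 0.0317 and an adjusted p of 0.0635. The groups overlapped there through conjugate replicate 2 (3.81), and without it the difference was -2.20 (adjusted exact p = 0.0159). For GiprSyn-/- livers the ratio was 4.14 in replicate 1 and 1.74 to 1.99 in the other 4, a mean difference of -1.05 from vehicle (exact permutation p = 0.111, adjusted 0.148). Without that library it was -1.51 (adjusted exact p = 0.0317). In Glp1rWnt1-/- livers the difference was -0.53 (exact permutation p = 0.452).

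**Figure D2:**
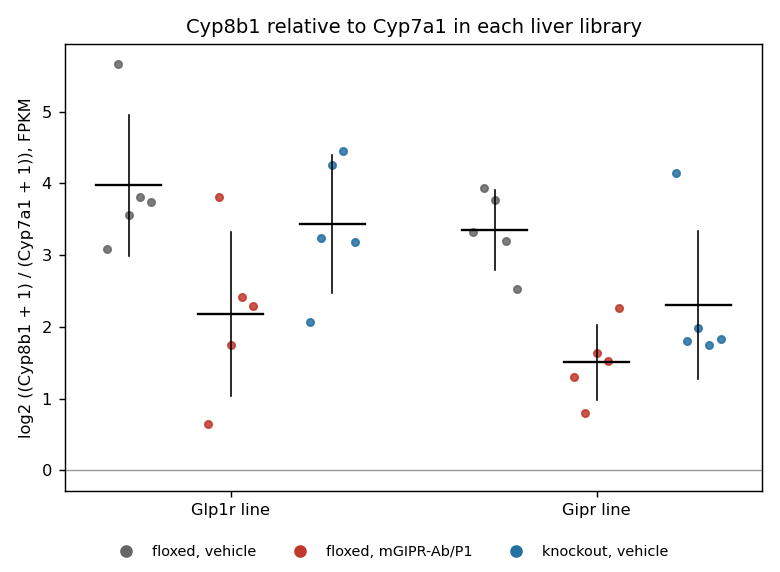
The log2 ratio of Cyp8b1 to Cyp7a1, from FPKM with 1 added to each, in the 30 liver libraries, with a bar at the group mean and a line of 1 SD on either side. In the Gipr line the conjugate livers (0.80 to 2.26) lie below the vehicle livers (2.52 to 3.93), and replicate 2 of the Glp1r conjugate livers (3.81) and replicate 1 of the GiprSyn-/- livers (4.14) stand away from the rest of their groups.

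Cyp27a1, the mitochondrial enzyme of the alternative route, was 190 ± 21.9 FPKM with vehicle and 199 ± 15.7 with the conjugate in the Glp1r line, a log2 fold change of 0.08 ± 0.077 (adjusted p = 0.556 by limma). Levels in the Gipr line were 105 to 186 FPKM with vehicle and 168 to 237.5 with the conjugate. The ranges overlapped and the log2 fold change of 0.32 ± 0.143 had an adjusted p of 0.233. The conjugating genes stayed close to their vehicle levels. Slc27a5 differed from vehicle by log2 fold changes of -0.06 to 0.07 in the 4 comparisons and Baat, the amino acid transferase, by -0.07 to 0.13. Their standard errors were at most 0.0901, so a change of 1.5-fold in either gene would have stood far outside the error. The nearest to a change was Baat in Glp1rWnt1-/- livers, at 104 to 117 FPKM against 93.2 to 112 with vehicle (log2 fold change 0.13 ± 0.0517, adjusted p = 0.406).

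Neither transporter was called. Abcb11, the bile salt export pump, was 77.7 to 114 FPKM with the conjugate against 88.0 to 91.8 with vehicle in the Glp1r line, and 75.9 to 105 against 75.2 to 107 FPKM in the Gipr line. Its 5 Glp1r vehicle livers were the tightest set of any member, with a coefficient of variation of 1.62%, and the conjugate livers spread on both sides of them. Its log2 fold changes were -0.04 ± 0.0991 and -0.09 ± 0.133 (adjusted p = 0.836 and 0.786 by limma). Slc10a1, the sodium-dependent uptake carrier NTCP, was 297 ± 21.0 against 264 ± 45.6 FPKM in the Glp1r line and 319 ± 25.1 against 276 ± 50.5 FPKM in the Gipr line. Its log2 fold changes of 0.18 ± 0.098 and 0.22 ± 0.121 did not pass (adjusted p = 0.245 and 0.323). All 5 Gipr conjugate livers (297 to 357.5 FPKM) lay above all 5 knockout livers (242 to 295 FPKM), with an adjusted p of 0.417.

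Among the regulators, Nr1h4 came closest to the threshold. With the conjugate its log2 fold change was 0.30 ± 0.146 in the Glp1r line (adjusted p = 0.205 by limma) and 0.16 ± 0.125 in the Gipr line (adjusted p = 0.548). GiprSyn-/- livers held Nr1h4 at 52.3, 49.1, 58.6, 71.7 and 50.1 FPKM, against 73.1, 64.7, 70.4, 86.9 and 68.2 with vehicle. Replicate 4 of the knockout alone lay inside the vehicle range. The log2 fold change was -0.37 ± 0.125 with an adjusted p of 0.0784, and without that library it was -0.46 with an adjusted p of 0.0296. Conjugate livers of that line held 64.7 to 91.0 FPKM, a log2 fold change of 0.52 ± 0.125 from the knockout (adjusted p = 0.055).

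Nr0b2, the repressor SHP that FXR induces, was 21.8 ± 3.47 FPKM in Gipr vehicle livers. Conjugate livers held 7.06, 11.01, 7.11, 31.9 and 41.4 FPKM, so 3 lay below and 2 above the whole vehicle range (16.3 to 25.2 FPKM). The 2 high ones are replicates 4 and 5, whose library numbers belong to a later series than those of the other 3, as does vehicle replicate 5. Without these 3 libraries the log2 fold change of Nr0b2 was -1.31 ± 0.544 (adjusted p = 0.187 by limma), against -0.49 ± 0.545 with them (adjusted p = 0.701). What the later number stands for is not given in the sources used here, and its part in the result was not tested. Cyp7a1 was highest in the 3 livers where Nr0b2 was lowest and lowest in the other 2. Across GiprSyn-/- livers Nr0b2 ran from 3.73 to 32.2 FPKM, and in the Glp1r line the 3 groups ran from 10.6 to 30.2 FPKM with no call.

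Within groups, Cyp7a1 and Nr0b2 moved in opposite directions, but not beyond the number of relations examined. Over the 15 deviations from group means, Pearson's r was -0.576 (permutation p = 0.076) and Spearman's rho -0.625 (p = 0.0304) in the Gipr line, with adjusted p of 0.434 and 0.391 over 90 relations. Without the 2 libraries farthest from the median of Cyp7a1, r was -0.686. For the Glp1r line r was -0.473 (permutation p = 0.101, adjusted 0.479) and rho -0.536 (p = 0.0642, adjusted 0.427), and without the 2 farthest libraries r was -0.0538, so that relation rests on them. None of the 90 relations among members passed, and the lowest adjusted p was 0.0954. Fgfr4, the hepatic receptor of FGF15, was 10.7 ± 1.54 FPKM with the conjugate against 8.99 ± 0.868 with vehicle in the Glp1r line (log2 fold change 0.22 ± 0.0917, adjusted p = 0.138 by limma). Gipr livers held Fgfr4 at 6.04 to 9.35 FPKM with vehicle, 4.18 to 12.47 with the conjugate and 7.12 to 7.92 in the knockout. The log2 fold changes of Fgfr4 from vehicle were 0.16 with the conjugate and -0.03 in the knockout, and neither was called.

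**Figure D3:**
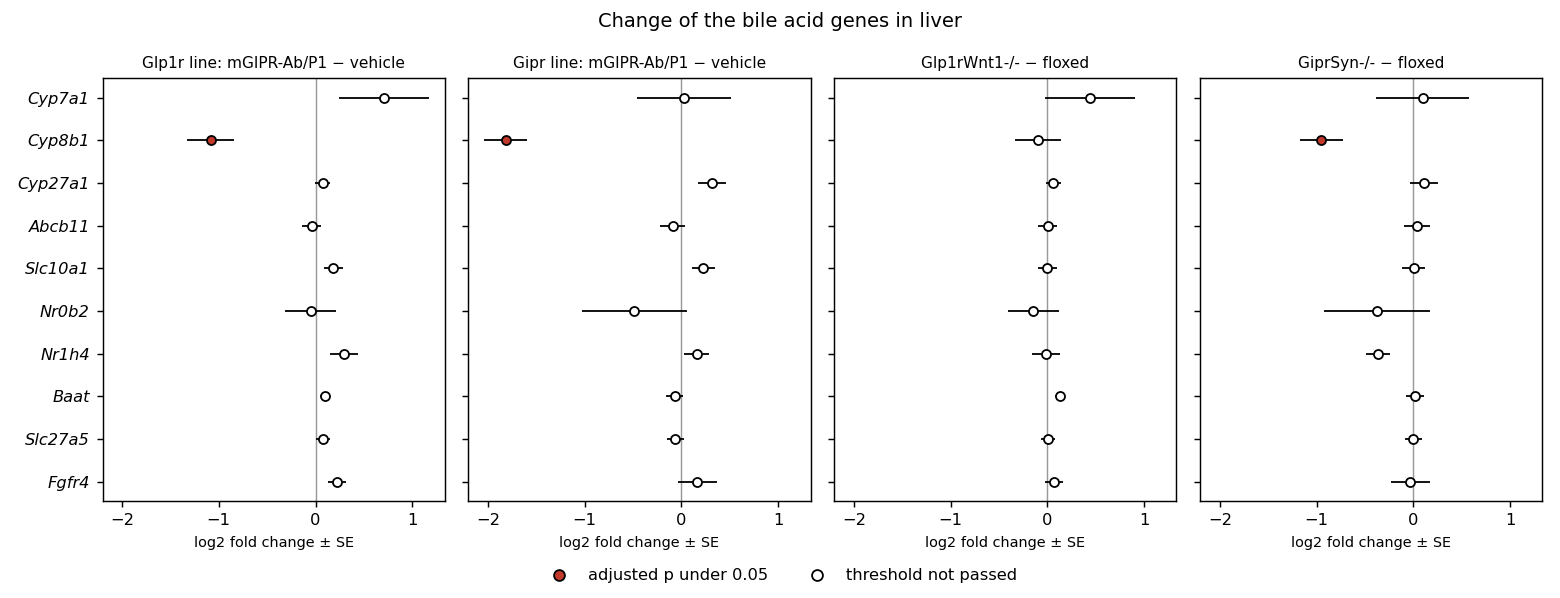
Log2 fold change with its standard error for the 10 genes in the 4 comparisons with vehicle, on the log2(FPKM + 1) scale. Filled points passed an adjusted p of 0.05: Cyp8b1 at -1.08, -1.82 and -0.95 is the only gene with filled points, and Cyp7a1 and Nr0b2 have the widest error bars in the Gipr line.

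The genes whose levels ran most like Cyp8b1 over the 15 libraries of each table, among 9971 genes tested in both, were Them7, Ctcflos, Tmem120a, S100a10 and Cilk1. The mean of the 2 Pearson correlations was 0.853 for Them7, 0.846 for Ctcflos, 0.839 for Tmem120a, 0.836 for S100a10 and 0.835 for Cilk1. For Cyp7a1 they were Rpf2 (0.658), Ahcy (0.64), Proz (0.636), Bbs10 (0.633) and Mrpl47 (0.627). These are descriptions: the libraries share their groups, and a gene that differs between the same groups as Cyp8b1 scores high. Between Cyp8b1 and the other 9 members the mean correlation ran from -0.41 (Fgfr4) to 0.213 (Baat). The 2 tables differed for Baat, at -0.0595 in the Glp1r and 0.486 in the Gipr table. Over deviations from group means in the Gipr line, Cyp8b1 and Baat gave a Pearson's r of 0.706 (permutation p = 0.00237, adjusted 0.0954) and a Spearman's rho of 0.75 (p = 0.00361, adjusted 0.283), with r at 0.703 without the 2 libraries farthest from the median of Cyp8b1. For the Glp1r line r was 0.213 (permutation p = 0.314, adjusted 0.652) and rho 0.289 (p = 0.209, adjusted 0.606), with r at 0.233 without the 2 farthest libraries.

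Other enzymes of the pathway were followed as a list of 16, of which 15 were tested. With the conjugate 3 rose and 1 fell in the Glp1r line, and 2 rose and 1 fell in the Gipr line. In GiprSyn-/- livers 2 rose and 3 fell, and in Glp1rWnt1-/- livers none of the 15 was called by limma (3 at an unadjusted p under 0.05). The median log2 fold change of the list was 0.01, -0.23, -0.05 and -0.02 in that order, against 0.01, -0.03, -0.11 and -0.04 for all genes tested. Of all genes tested, 5.68% rose and 4.69% fell with the conjugate in the Glp1r line. For the Gipr line these shares were 1.17% and 3.17% with the conjugate and 1.44% and 8.92% in the knockout. Cyp2c70 and Cyp7b1 were the 2 enzymes that rose in all 3 comparisons.

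Cyp2c70 makes the muricholic acids that mice have and humans lack. Gipr livers held 92.0, 81.8, 99.6, 79.3 and 88.4 FPKM with vehicle, 247, 168, 147, 138 and 183 FPKM with the conjugate and 204, 291.5, 174, 284 and 263 FPKM in the knockout. Every conjugate and every knockout liver lay above every vehicle liver. The log2 fold changes were 0.97 ± 0.165 (adjusted p = 0.00628 by limma) and 1.43 ± 0.165 (adjusted p = 0.000136). Glp1r livers held Cyp2c70 at 75.7, 73.0, 91.5, 82.5 and 87.0 FPKM with vehicle and at 242, 122, 148, 130 and 93.9 FPKM with the conjugate, again with no overlap. Its log2 fold change of 0.77 ± 0.234 (adjusted p = 0.0485) was near the threshold and did not pass under a common sum (adjusted p = 0.0674) or median-of-ratios scaling (adjusted p = 0.0551). Cyp2c70 has many Cyp2c relatives, and how reads shared among them were split is RSEM's estimate.

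Cyp7b1, the oxysterol 7-alpha-hydroxylase of the alternative route, was highest in GiprSyn-/- livers. There it was 102 to 132 FPKM, against 7.24 to 29.9 FPKM with vehicle and 25.2 to 65.8 with the conjugate. The knockout livers all lay above both other groups. The log2 fold change of Cyp7b1 from vehicle was 2.54 ± 0.317 (adjusted p = 0.000212 by limma) in the knockout and 1.27 ± 0.317 (adjusted p = 0.0393) with the conjugate. The Glp1r line had Cyp7b1 at 27.0 to 31.9 FPKM with vehicle and 32.4 to 55.4 with the conjugate (0.55 ± 0.15, adjusted p = 0.0324). Glp1rWnt1-/- livers held Cyp7b1 at 51.8, 52.2, 39.6, 62.3 and 37.1 FPKM, all above the 5 vehicle livers, and their mean of 48.6 ± 10.3 FPKM was no lower than that of the conjugate livers (44.5 ± 9.81). The log2 fold change there was 0.68 ± 0.15, but in a comparison with 0 calls by limma its adjusted p was 0.14. Slc27a2, a very long chain acyl-CoA synthetase, rose with the conjugate in the Glp1r line (0.20 ± 0.0524), and Cyp2a12 fell with it (-0.31 ± 0.085). Hsd17b4, the peroxisomal bifunctional enzyme of side chain shortening, fell in the Gipr line with the conjugate (-0.39 ± 0.0766) and in the knockout (-0.48 ± 0.0766), where Cyp46a1, the brain-type cholesterol hydroxylase, fell as well (-1.01 ± 0.208). Under quantile normalization Slc27a2 did not pass in the Glp1r line, nor Hsd17b4 and Abcb4 with the conjugate in the Gipr line.

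**Figure D4:**
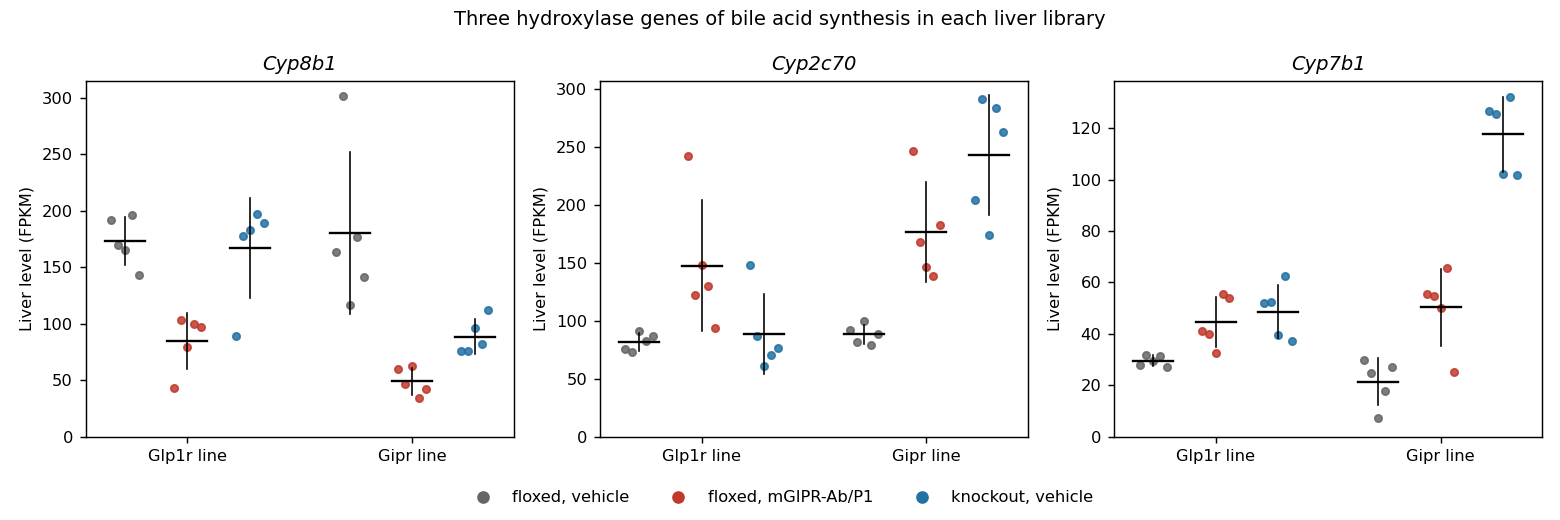
Levels of Cyp8b1, Cyp2c70 and Cyp7b1 in FPKM in the 30 liver libraries, with a bar at the group mean and a line of 1 SD on either side. Cyp8b1 is low and Cyp2c70 high in the conjugate groups of both lines and in GiprSyn-/- livers, and Cyp7b1 is highest in GiprSyn-/- livers (102 to 132 FPKM).

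Of 14 other bile acid and biliary lipid transporters 11 were tested. With the conjugate 1 rose and 1 fell in the Glp1r line and 1 rose and 2 fell in the Gipr line, and in GiprSyn-/- livers 1 rose and 3 fell. Of all genes tested 5.68%, 1.17% and 1.44% rose in these comparisons, and 4.69%, 3.17% and 8.92% fell. The transporter that rose was Slco1a1, an organic anion uptake carrier, each time. Its vehicle livers were far apart, at 2.55 to 34.0 FPKM in the Glp1r and 0.851 to 52.4 FPKM in the Gipr line, against 33.6 to 71.6 and 49.8 to 165 FPKM with the conjugate. The log2 fold changes of Slco1a1 were 1.89 ± 0.501, 3.13 ± 0.695 and, in GiprSyn-/- livers, 2.87 ± 0.695 (adjusted p = 0.0296, 0.0234 and 0.0158 by limma). In Glp1rWnt1-/- livers Slco1a1 held 27.0 to 86.4 FPKM and was not called, in a comparison with 0 calls by limma. Its mean there was 65.8 ± 23.5 FPKM (SD, n = 5), against 18.95 ± 12.8 with vehicle. That was no lower than the mean of the conjugate livers of the line (58.2 ± 15.6 FPKM). The phospholipid exporter Abcb4 fell in the Gipr line with the conjugate (-0.48 ± 0.0943) and in the knockout (-0.55 ± 0.0943), as did the basolateral exporter Abcc3 (-0.57 ± 0.114 and -0.64 ± 0.114). Slco1a4 fell in that knockout (-1.25 ± 0.227). Slc10a2, the uptake carrier of ileum and bile duct cells, fell in the Glp1r line with the conjugate, from 13.3 ± 3.46 to 7.61 ± 1.22 FPKM (-0.72 ± 0.136, adjusted p = 0.00795). The 7 cholangiocyte markers summed to 11.97 to 34.9 FPKM in those conjugate livers and 32.5 to 79.1 with vehicle. Nearly all of that sum was Spp1 (23.8 ± 8.85 against 43.1 ± 19.0 FPKM, adjusted p = 0.17 by limma), which is not made by bile duct cells alone. The other 6 averaged under 1 FPKM in both groups and were not tested, and Epcam was 0.89 ± 0.274 against 0.812 ± 0.114 FPKM. The part of bile duct cells in this result was not tested.

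**Figure D5:**
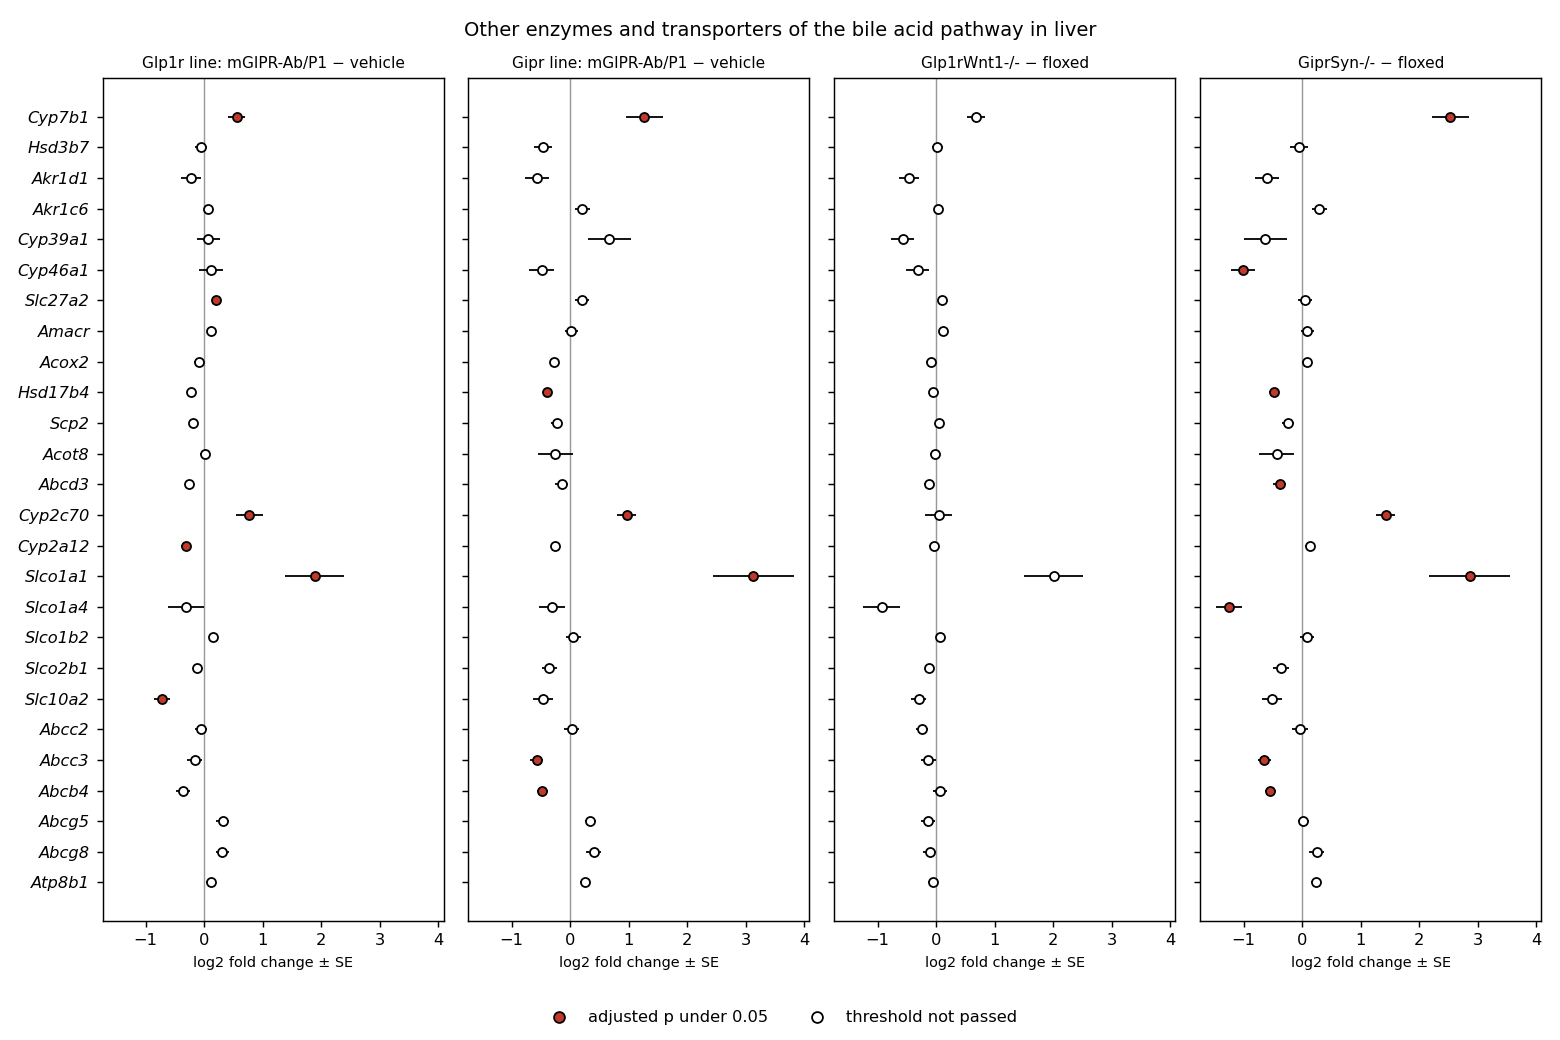
Log2 fold change with its standard error for the 15 other synthesis enzymes and 11 other transporters tested, in the 4 comparisons with vehicle. Filled points passed an adjusted p of 0.05, and Slco1a1, Cyp7b1 and Cyp2c70 lie farthest to the right in GiprSyn-/- livers (2.87, 2.54 and 1.43).

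Of the 16 other regulators 13 were tested. For this list and the next ones, the shares of all genes called are those printed above for the same comparisons. With the conjugate Rxra, the shared partner of FXR, and Nr1h3, the oxysterol receptor LXR alpha, rose by small amounts in the Glp1r line (0.17 ± 0.0499 and 0.15 ± 0.047, adjusted p = 0.039 and 0.0493 by limma), and neither passed under a common sum or median-of-ratios scaling. None was called by limma with the conjugate in the Gipr line (1 at an unadjusted p under 0.05), and in GiprSyn-/- livers Ppara, the fatty acid receptor, fell (-0.47 ± 0.122). Of the genes of bile acid sulfation and detoxification, Sult2a8, a bile acid sulfotransferase, rose in the Glp1r line from 174 ± 44.0 to 284 ± 28.5 FPKM (0.74 ± 0.15, adjusted p = 0.00982), 1 of 5 tested. For GiprSyn-/- livers Cyp3a11 (-0.94 ± 0.238) and Ugt1a1 (-0.39 ± 0.0999) fell, 2 of 4 tested. The falls of Ppara, Cyp3a11, Ugt1a1 and Hsd17b4 in that knockout did not pass under median-of-ratios or quantile scaling, and the median of all genes lay at -0.11 there. Of all genes in that comparison 161 were called higher and 999 lower, and with median-of-ratios scaling 281 and 436. Clock genes, which help set the daily course of Cyp7a1, gave 0 calls by limma among the 11 tested in the Glp1r and the 10 in the Gipr line, with 3 and 4 at an unadjusted p under 0.05 with the conjugate and 0 in each knockout. Zonal markers moved in part: Rhbg, a pericentral ammonium carrier, fell with the conjugate in both lines (-0.97 ± 0.168 and -1.37 ± 0.208), and Cyp2e1, a pericentral cytochrome P450, rose with it in the Glp1r line (0.34 ± 0.101). Of the 7 pericentral markers in GiprSyn-/- livers Cyp1a2 rose (1.86 ± 0.213) and Glul and Rhbg fell (-0.60 ± 0.133 and -0.82 ± 0.208), and of 6 periportal markers Cps1 rose (0.86 ± 0.168). Their part in the results was not tested.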

How the data were processed

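Stranded poly(A) RNA sequencing was done on liver and inguinal fat, per the labels' protocols. The authors deposited 4 tables of FPKM, computed with RSEM per the submitters' processing notes. Its version is not given in the sources used here, nor are the aligner, build, annotation or strand setting. FPKM is no count, so no count model was used. The 2 liver tables were analysed apart with limma 3.58.1 (R 4.3.3) on log2(FPKM + 1) values (trend, 3 groups a fit, Benjamini-Hochberg over all genes tested, called at an adjusted p under 0.05, genes of at least 1 FPKM in 5 of 15 libraries). The 2 lines were compared in a fit of all 30 liver libraries. Depth was estimated from the smallest steps of single-transcript genes of GENCODE (1500 to 6000 bases, tolerance 5%) and is approximate. Adipose values only describe vehicle levels. Single ratios were tested by exact permutation in Python 3.11.15 with scipy 1.17.1. On simulated data made from the tables, 87 to 98% of genes changed 2-fold and 49 to 93% of those changed 1.5-fold were recovered. The simulated noise was normal and independent, with no depth difference between groups. For each fold 100 genes were changed, with means above 2 on the log2(FPKM + 1) scale. These rates are not the power for a single scattered gene such as Cyp7a1, nor for groups that differ in depth.

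The members and gene lists were chosen with earlier results of these data known. Named were all 10 members, up to 4 called genes a list and comparison by size of change, and the 5 genes most like Cyp8b1 and Cyp7a1. Each group has 5 libraries that the labels call biological replicates, and p-values measure the spread between them. The labels do not state that the replicate numbers pair the groups. Same-numbered libraries had a median correlation of deviations of 0.0259 (-0.151 to 0.418) in the Glp1r and -0.112 (-0.484 to 0.454) in the Gipr line. For other pairs the medians were 0.00584 and -0.00801. Such medians cannot exclude a pairing. The groups were compared unpaired, with a replicate block as an alternative. Alternatives were another pseudocount, filter, scaling, replicate block, only 2 groups, robust and weighted fits, depth and pancreas terms, and each library left out.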

Additional observations from a re-analysis of the deposited data

Results flagged for a closer look

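A library far from the other 4 of its group was found in 3 of 60 groups of members, where chance gives about 1 in 20. Nr1h4 was 49.82 FPKM in replicate 2 of the Glp1r vehicle livers, the library with the lowest Cyp7a1 of that group, and 71.5 to 79.6 FPKM in the other 4. Cyp8b1 was 88.91 FPKM in replicate 1 of the Glp1rWnt1-/- livers and 178 to 197 FPKM in the other 4. That library also held the highest Cyp2c70 of its group, 148.5 FPKM against 61.0 to 86.7 FPKM in the other 4. Cyp27a1 was 237.5 FPKM in replicate 4 of the Gipr conjugate livers and 168 to 183 FPKM in the other 4.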

How the results depend on the processing

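Cyp8b1 fell with the conjugate in the Gipr line under all 28 alternatives (log2 fold change -1.95 to -1.61), and 1 member was called under each. The Glp1r line had 1 member called under 25 of 26 alternatives and 0 with the depth term, where 0 of all genes were called (1283 at an unadjusted p under 0.05). In Glp1rWnt1-/- livers 0 members were called under all 26. In GiprSyn-/- livers 2 members were called under a common sum and with array weights, 0 under median-of-ratios and quantile scaling, and 1 to 2 with a library left out. For conjugate against knockout, 0 members were called in the Glp1r line with no filter, only 2 groups or the depth term, and 0 to 1 with a library left out. The Gipr line had 1 under a common sum, 2 with array weights, 1 without the later library numbers, and 0 to 2 with a library left out. The difference of the knockout effects had 1 called member with array weights, Cyp8b1 (adjusted p = 0.0354 by limma). The cause was not tested. With the replicate block the members called were 1, 0 and 1 in the Glp1r line (conjugate, knockout, conjugate against knockout) and 1, 1 and 0 in the Gipr line. With a library left out, the ratio difference ran from -2.20 to -1.37 and from -2.05 to -1.67 with the conjugate (Glp1r and Gipr), and from -1.51 to -0.90 in GiprSyn-/- livers. Of 2200 alternative values of single members 2176 kept their side of the threshold, 11 lost and 13 gained a call, and 158 that never passed changed sign. Calls over all genes ranged from 0 to 1676 (1126 in the text) and 149 to 1333 (486) with the conjugate, and from 0 to 81 (0) and 700 to 3333 (1160) in the knockouts.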
